A study of Mus musculus with 6 samples.

Results

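The 10 genes described here encode secreted ligands of the interleukin-1 family (Il1a, Il1b, Il1f9 and Il18), their natural inhibitors (the antagonist Il1rn and the decoy receptor Il1r2), the shared receptor subunit Il1rap, and the NLRP3 inflammasome (Nlrp3, Pycard and Casp1). They were chosen by name, by a rule that uses no expression values but was set with earlier results of these data known. Counts of them beside all genes are therefore descriptions. All 10 are among the 28987 genes measured. RNA was sequenced in 6 libraries of bone marrow cells from C57BL/6 mice whose mutations in CBL and RUNX1 model myelodysplastic syndrome. Ly6G+ cells, sorted by a neutrophil surface protein, gave 2 libraries with Mdivi-1 and 2 with vehicle. Hematopoietic stem and progenitor cells (HSCPs, as labelled), enriched by positive selection for CD117, gave 1 library with Mdivi-1 and 1 with vehicle. Every library comes from cells sorted as mutant, so no group has normal CBL and RUNX1. Mdivi-1, a compound known as a blocker of mitochondrial division, is aimed at the GTPase Drp1, which Dnm1l encodes. Not given in the sources used here are the age of the mice, the dose, the length of treatment and how the mutations were introduced, and libraries are not tied to single mice. P-values therefore measure only the spread between these libraries, which may be technical.

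Interleukin-1 beta is made as an inactive precursor. An inflammasome, in which the sensor NLRP3 recruits caspase-1 through the adaptor ASC (gene Pycard), cuts the precursors of interleukin-1 beta and interleukin-18 to their active forms, and neutrophil proteases can also process interleukin-1 family members. Secreted interleukin-1 signals through the receptor IL1R1 with the accessory chain IL1RAP, while IL1RN blocks that receptor and IL1R2 binds the ligand without signalling. Neutrophils are a known source of interleukin-1 beta and of decoy receptor. The data are RNA levels and do not measure processing, secretion or signalling.

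Levels are given as TPM, transcript shares corrected for length and scaled to a fixed total. Kit, the gene of CD117, was at 9.52 and 8.73 TPM in Ly6G+ Mdivi-1, 10.4 and 14.1 in Ly6G+ vehicle, 64.9 in HSCP Mdivi-1 and 72.2 in HSCP vehicle. Ly6g was at 791 and 642 TPM in Ly6G+ Mdivi-1, 814 and 840 in Ly6G+ vehicle, 90.1 in HSCP Mdivi-1 and 187 in HSCP vehicle, so both sort markers followed the labels while Ly6g RNA was also present in the HSCP libraries. Dnm1l averaged 23.8 ± 1.11 TPM in Ly6G+ Mdivi-1 and 23.7 ± 0.846 TPM in Ly6G+ vehicle (SD, n = 2 each), a log2 change of 0.0047 (limma adjusted p = 0.975). In each library between 11456 and 11930 genes reached 1 TPM.

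In Ly6G+ cells with Mdivi-1, RNA of the decoy receptor Il1r2 was 5.90-fold that with vehicle, and RNA of the ligand Il1b and the receptor subunit Il1rap was 2.32-fold and 2.28-fold (n = 2 libraries per arm). The ligand Il1f9 rose by less, and the inflammasome genes Casp1 and Pycard stayed within the spread between libraries. Of the 10 genes, 8 reached 1 TPM in 2 or more of the 4 libraries and were tested; 4 were higher, 0 were lower and 4 did not pass. Over all 11775 genes tested, 2.46% were called higher and 4.24% lower by limma with Benjamini-Hochberg adjustment at 0.05. These are 290 genes higher and 499 lower, a split that became 373 and 386 after median-of-ratios scaling and 380 and 376 with upper-quartile scaling. The 8 genes had a median log2 change of 0.43, against -0.05 over all genes tested. Summed over the 10 genes, the level was 866 and 864 TPM in the Mdivi-1 libraries, against 474 and 473 TPM in the vehicle libraries. With either vehicle library left out, Il1r2 and Il1b were the 2 genes that passed in limma, and with either Mdivi-1 library left out, Il1rap passed with them.

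The sequences just upstream of the transcription start are shown for the 4 genes that were higher, since promoters of genes that move together are where shared letters would be looked for. Each is 250 bases from RefSeq on build GRCm38.p6, read 5′ to 3′ on the gene's strand. They are chr1:40085843-40086092 on the plus strand for Il1r2, chr2:129371140-129371389 on the minus strand for Il1b, chr16:26581455-26581704 on the plus strand for Il1rap and chr2:24186226-24186475 on the plus strand for Il1f9. Capitals mark matches to the motifs searched.
Il1r2: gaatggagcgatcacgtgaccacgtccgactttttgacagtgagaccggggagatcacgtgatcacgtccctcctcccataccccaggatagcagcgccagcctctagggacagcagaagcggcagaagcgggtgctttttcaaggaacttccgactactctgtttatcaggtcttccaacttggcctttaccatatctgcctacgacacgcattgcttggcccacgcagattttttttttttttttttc
Il1b: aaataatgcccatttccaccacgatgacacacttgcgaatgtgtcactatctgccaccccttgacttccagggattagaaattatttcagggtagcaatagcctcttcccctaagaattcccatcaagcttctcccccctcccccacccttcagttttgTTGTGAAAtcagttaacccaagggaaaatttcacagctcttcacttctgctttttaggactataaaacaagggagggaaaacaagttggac
Il1rap: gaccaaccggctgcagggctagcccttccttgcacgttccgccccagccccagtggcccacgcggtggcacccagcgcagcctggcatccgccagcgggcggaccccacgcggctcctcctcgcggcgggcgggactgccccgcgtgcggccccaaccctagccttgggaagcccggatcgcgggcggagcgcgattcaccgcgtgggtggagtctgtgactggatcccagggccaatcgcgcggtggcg
Il1f9: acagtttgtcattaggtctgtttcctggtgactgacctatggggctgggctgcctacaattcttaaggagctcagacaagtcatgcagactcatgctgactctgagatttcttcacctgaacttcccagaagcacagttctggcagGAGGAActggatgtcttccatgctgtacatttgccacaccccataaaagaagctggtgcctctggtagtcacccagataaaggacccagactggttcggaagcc
The motifs were searched on both strands for C/EBP as TTNCNNAA, for PU.1 as GAGGAA and for AP-1 as TGANTCA, and longer motifs for NF-kB and the glucocorticoid receptor were searched too. The Il1b window held 1 C/EBP match and the Il1f9 window 1 PU.1 match, while the Il1r2 and Il1rap windows held none of the 5 motifs. All 10 genes had a RefSeq window, and a gene with several starts counts once. Among them 1 held an NF-kB match, 5 a C/EBP match, 5 a PU.1 match, 2 an AP-1 match and 0 a glucocorticoid receptor match. A gene with several windows had more places to match. Some windows of Il1rn overlap and hold the same C/EBP site, so by window that site counts more than once. Counted by window, the measure used next, 1, 7, 5, 2 and 0 of the 13 windows of the 10 genes held these motifs. Of 32851 RefSeq windows of the same length, 4.65%, 36.8%, 23.3%, 6.75% and 0.387% held these motifs, in that order. No letters were shared as a match by the 4 windows. The windows differed in base composition, with 74.4% G and C in Il1rap against 51.2% in Il1r2, 50% in Il1f9 and 44.4% in Il1b. The Il1r2 start used by RefSeq lies 12014 bases downstream of the gene's start in GENCODE M21, so other starts of Il1r2 are not covered by this window.

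Il1b encodes interleukin-1 beta, the main secreted interleukin-1 of myeloid cells (chromosome 2, 129364570 to 129371139, mm10). It stood at 321 and 311 TPM in Ly6G+ Mdivi-1, against 135 and 137 TPM in Ly6G+ vehicle. Both Mdivi-1 libraries lay above both vehicle libraries, and within each arm the libraries differed by far less than the arms. The log2 change was 1.21 with SE 0.050 (limma adjusted p = 0.00219). Among the 11775 genes this was the 162nd in size of log2 change.

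Il1f9 encodes interleukin-36 gamma, a ligand of the receptor made of IL1RL2 and IL1RAP (chromosome 2, 24186476 to 24193568). Its levels were 132 and 138 TPM in Ly6G+ Mdivi-1, against 108 and 100.2 TPM in Ly6G+ vehicle. The arms did not overlap. The log2 change of 0.37 with SE 0.065 passed narrowly (limma adjusted p = 0.0423), and it did not pass when any of the 4 libraries was left out (limma adjusted p from 0.0963 to 0.184). Of its 31-base words, 87.0% occur in no other gene, so part of its reads may be shared.

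Il1a and Il18 were at the bottom of the range in all libraries and were not tested. Il1a, the interleukin-1 alpha gene next to Il1b, had 0.46 and 0.18 TPM in Ly6G+ Mdivi-1, against 0.37 and 0.15 TPM in Ly6G+ vehicle, with overlap between the arms. Il18 was listed at 0 and 0.33 TPM in Ly6G+ Mdivi-1 and at 0 and 0.36 TPM in Ly6G+ vehicle. TPM keeps no read totals, so whether such low values rest on a few reads cannot be read from the table. The ligands Il1f5, Il1f6, Il1f8 and Il1f10 of the chromosome 2 cluster were listed at 0 in all 6 libraries, and Il33, an alarmin ligand, did not reach 1 TPM in any.

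**Figure D1:**
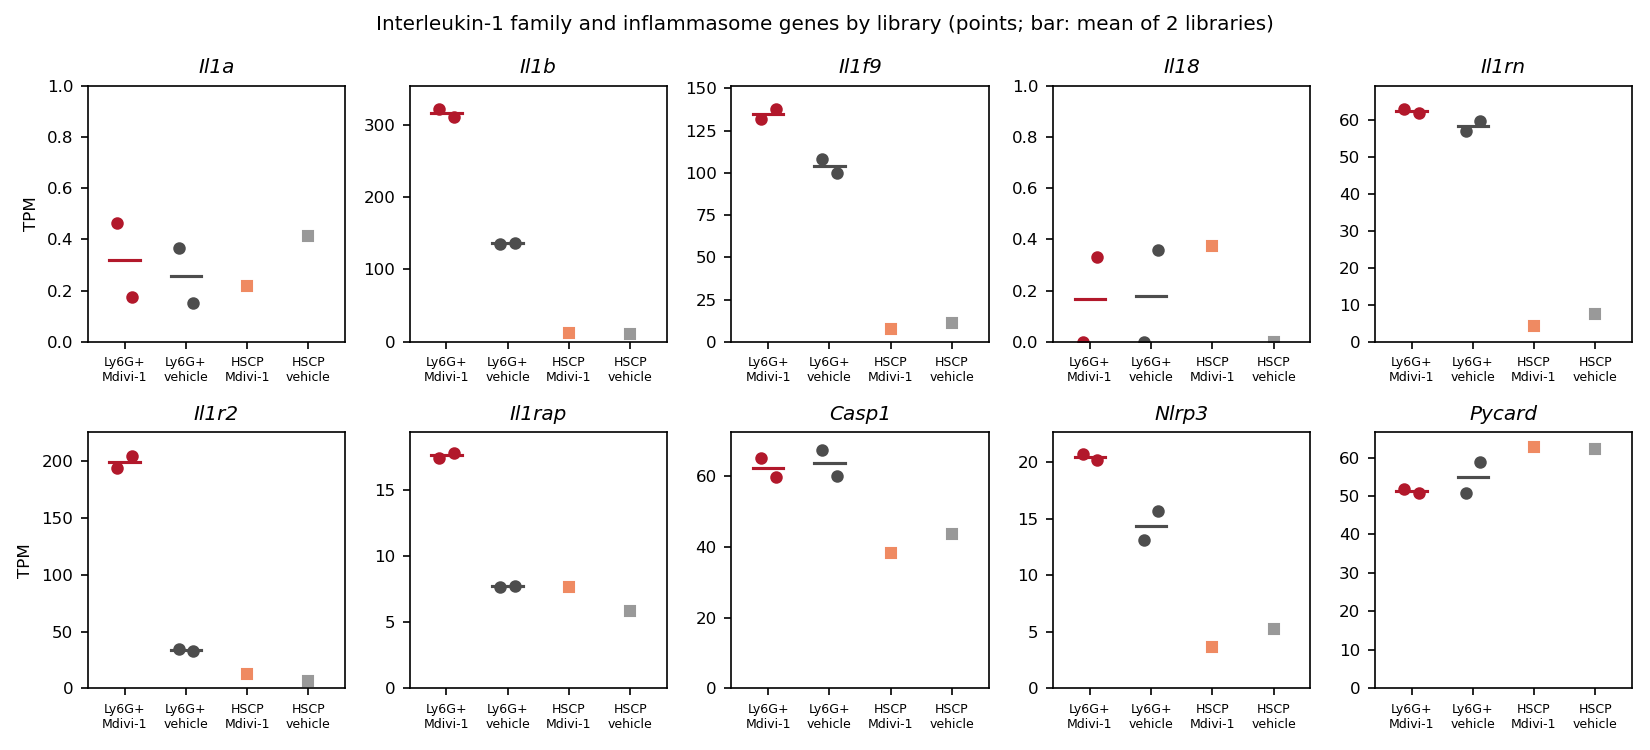
Level of each of the 10 genes in TPM in every library, on an axis from 0 per gene, with Ly6G+ Mdivi-1, Ly6G+ vehicle, HSCP Mdivi-1 and HSCP vehicle from left to right; points are libraries and the bar is the mean of 2. Il1r2 at 194 and 205 TPM in Ly6G+ Mdivi-1 stands above 34.3 and 33.3 TPM in Ly6G+ vehicle, while Casp1 and Pycard overlap.

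Il1r2 encodes the decoy receptor that captures interleukin-1 (chromosome 1, 40074079 to 40125231). It reached 194 and 205 TPM in Ly6G+ Mdivi-1, against 34.3 and 33.3 TPM in Ly6G+ vehicle. The gap between the arms was many times the difference within either arm. The log2 change was 2.53 with SE 0.060 (limma adjusted p = 0.000734), the 16th in size among 11775 genes. Il1r2 ranked 2nd among the 10 genes in Ly6G+ Mdivi-1, at 23.1% of their summed TPM, and 6th in Ly6G+ vehicle, at 7.14%.

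Il1rn, the secreted receptor antagonist (chromosome 2, 24336853 to 24351494), had 63.0 and 62.0 TPM in Ly6G+ Mdivi-1, against 56.9 and 59.6 TPM in Ly6G+ vehicle. The arms did not overlap, but the log2 change of 0.10 did not pass (SE 0.060, limma adjusted p = 0.361). Its 95% interval was -0.05 to 0.25, before any adjustment for the number of genes. Among all genes tested, 21% had Mdivi-1 libraries wholly above vehicle and 36.7% wholly below, so a lack of overlap between 2 and 2 libraries was common. Of the 8 tested genes, 6 had Mdivi-1 wholly above vehicle and 0 wholly below.

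Il1rap is the accessory chain that the receptors of interleukin-1, interleukin-33 and interleukin-36 share (chromosome 16, 26581704 to 26730117). It had 17.5 and 17.9 TPM in Ly6G+ Mdivi-1, against 7.69 and 7.79 TPM in Ly6G+ vehicle. The arms did not overlap, and the libraries within each arm were close. The log2 change was 1.09 with SE 0.082 (limma adjusted p = 0.0062), and the adjusted p was 0.0728 without vehicle replicate 1 and 0.0713 without vehicle replicate 2 in limma.

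Antisense transcripts overlap several of these genes, and the strand setting is not given in the sources used here. Il1bos, on the strand opposite to Il1b, had 1.59 and 1.74 TPM in Ly6G+ Mdivi-1, against 0.902 and 1.11 TPM in Ly6G+ vehicle, far below the level of Il1b. Gm20319, opposite to Il1rap, did not reach 1 TPM in any library. Gm16894, opposite to Il1r2, and Gm37347, on the same strand as Il1r2, are not among the genes measured, so their levels are unknown. No annotated gene overlaps Il1f9, Il1rn, Casp1 or Nlrp3.

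Nlrp3, the inflammasome sensor (chromosome 11, 59541568 to 59566956), had 20.7 and 20.2 TPM in Ly6G+ Mdivi-1, against 13.1 and 15.7 TPM in Ly6G+ vehicle. Both Mdivi-1 libraries were above both vehicle libraries. The log2 change of 0.48 with SE 0.105 did not pass (limma adjusted p = 0.0656). It passed in limma after median-of-ratios scaling (adjusted p = 0.049), with upper-quartile scaling (adjusted p = 0.0463) and with a filter at 5 TPM (adjusted p = 0.0485), and over its 10 alternatives the adjusted p ranged from 0.0463 to 0.182.

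Casp1, the caspase that cuts interleukin-1 beta (chromosome 9, 5298517 to 5307265), had 65.1 and 59.7 TPM in Ly6G+ Mdivi-1, against 67.4 and 60.0 TPM in Ly6G+ vehicle. Pycard, the adaptor ASC (chromosome 7, 127989708 to 127993867), had 51.7 and 50.7 TPM in Ly6G+ Mdivi-1, against 50.7 and 59.0 TPM in Ly6G+ vehicle. The arms overlapped for both genes. Neither passed, with log2 changes of -0.03 for Casp1 (95% interval -0.25 to 0.19, limma adjusted p = 0.867) and -0.09 for Pycard (95% interval -0.32 to 0.13, limma adjusted p = 0.553). These intervals are not adjusted for the number of genes, and both values changed sign under some alternatives without passing in any.

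**Figure D2:**
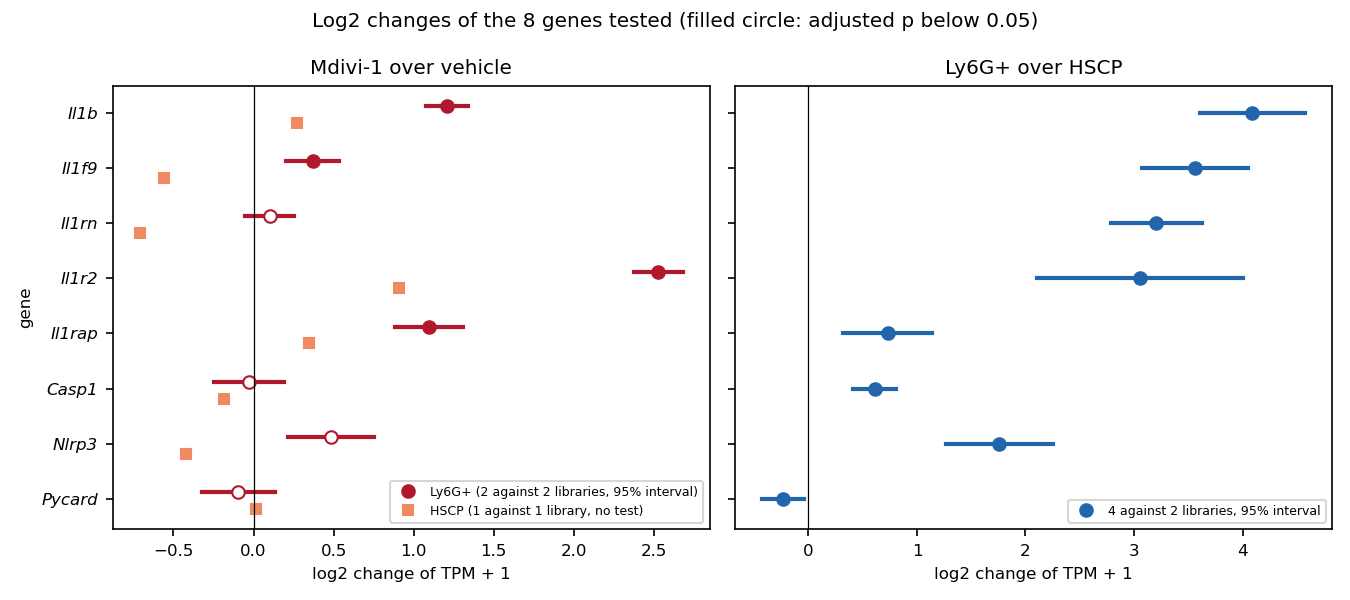
Log2 change of the tested genes on the log2(TPM + 1) scale for Mdivi-1 over vehicle (left) in Ly6G+ (circles, limma 95% intervals) and HSCP (squares, 1 library per arm, no interval), and for Ly6G+ over HSCP (right, limma 95% intervals); filled circles passed. Il1r2 (2.53), Il1b (1.21) and Il1rap (1.09) lie farthest from 0 on the left, and Il1b (4.09) on the right.

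Ratios between genes were taken within each library and so do not depend on how libraries are scaled. Each holds Il1r2 or Il1b, so the ratios largely restate the changes of those genes given above. Il1r2 over its signalling counterpart Il1r1 was 196 and 202 in Ly6G+ Mdivi-1, against 29.3 and 25.1 in Ly6G+ vehicle, although Il1r1 was at only 0.992 and 1.01 TPM in Ly6G+ Mdivi-1 and 1.17 and 1.33 TPM in Ly6G+ vehicle. Il1r2 over Il1rap was 11.1 and 11.5 in Ly6G+ Mdivi-1, against 4.46 and 4.28 in Ly6G+ vehicle. The antagonist Il1rn over Il1b was 0.196 and 0.199 in Ly6G+ Mdivi-1, against 0.421 and 0.435 in Ly6G+ vehicle. Antagonist RNA was thus lower relative to its ligand in both Mdivi-1 libraries, and decoy receptor RNA was higher relative to it. Il1r2 over Il1b was 0.605 and 0.659 in Ly6G+ Mdivi-1, against 0.254 and 0.243 in Ly6G+ vehicle, and Il1b over Casp1 was 4.93 and 5.20 in Ly6G+ Mdivi-1, against 2.01 and 2.28 in Ly6G+ vehicle. None of these ratios overlapped between the arms, which the changes of Il1r2 and Il1b alone could bring about. Among single genes, 21% had Mdivi-1 wholly above vehicle and 36.7% wholly below. An exact two-sided permutation test over 2 and 2 libraries cannot go below p = 0.333, which is the value each ratio gave (Benjamini-Hochberg adjusted p = 0.37 over 10 ratio tests). This test therefore could not pass whatever the ratios were.

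The order of levels also differed between the arms. In Ly6G+ Mdivi-1 the order was Il1b (316 ± 7.39 TPM, SD, n = 2), Il1r2 (199.5 ± 7.41), Il1f9 (135 ± 4.09), Il1rn (62.5 ± 0.682), Casp1 (62.4 ± 3.81), Pycard (51.2 ± 0.730), Nlrp3 (20.5 ± 0.346) and Il1rap (17.7 ± 0.267). Il1rn and Casp1 did not differ beyond their spread there. In Ly6G+ vehicle it was Il1b (136 ± 1.17 TPM, SD, n = 2), Il1f9 (104 ± 5.81), Casp1 (63.7 ± 5.27), Il1rn (58.3 ± 1.89), Pycard (54.8 ± 5.81), Il1r2 (33.8 ± 0.726), Nlrp3 (14.4 ± 1.8) and Il1rap (7.74 ± 0.0680). Il1rn and Pycard were neighbours whose values overlapped in the vehicle libraries, while both Casp1 values (67.4 and 60.0 TPM) lay just above them.

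Cell type markers moved between the same Ly6G+ libraries. The 10 late neutrophil markers summed to 49625 and 49185 TPM with Mdivi-1, against 34905 and 34668 TPM with vehicle; 8 of them were called higher and 0 lower, with log2 changes from 0.01 to 1.35 and a median of 0.48. Among them were the chemokine receptor gene Cxcr2 (0.76) and the resistin-like gene Retnlg (0.51). Most of the gap in the sum came from Retnlg, which averaged 32536 TPM with Mdivi-1 and 22773 TPM with vehicle. The 12 monocyte and macrophage markers summed to 2706 and 2799 TPM with Mdivi-1, against 2958 and 2936 TPM with vehicle, with 1 called higher and 1 lower. Their median log2 change was 0.03. The 1 called lower, Ly6c2, averaged 939 TPM with Mdivi-1 and 1269 TPM with vehicle, a gap larger than that of the sums. The 1 called higher, F13a1, averaged 345 TPM with Mdivi-1 and 260 TPM with vehicle. The 10 B cell markers summed to 23.1 and 22.6 TPM with Mdivi-1, against 122 and 124 TPM with vehicle (8 lower). The 6 basophil and mast cell markers summed to 166 and 175 TPM with Mdivi-1, against 496 and 504 TPM with vehicle (6 lower) and the 8 megakaryocyte markers to 120 and 104 TPM with Mdivi-1, against 263 and 261 TPM with vehicle (7 lower). Called lower among the rest were 4 of 9 dendritic cell, 1 of 6 early myeloid and 1 of 6 erythroid markers; called higher were 1 dendritic cell and 1 of 8 T and NK cell markers, and 0 of 5 eosinophil markers passed in either direction. None of the defining neutrophil, monocyte, B cell, basophil and megakaryocyte markers was listed at 0 in any library. In sorted bulk samples, more cells of a type and more RNA per cell cannot be told apart, and the part of these shifts in the changes of Il1r2, Il1b, Il1rap and Il1f9 was not tested.

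**Figure D3:**
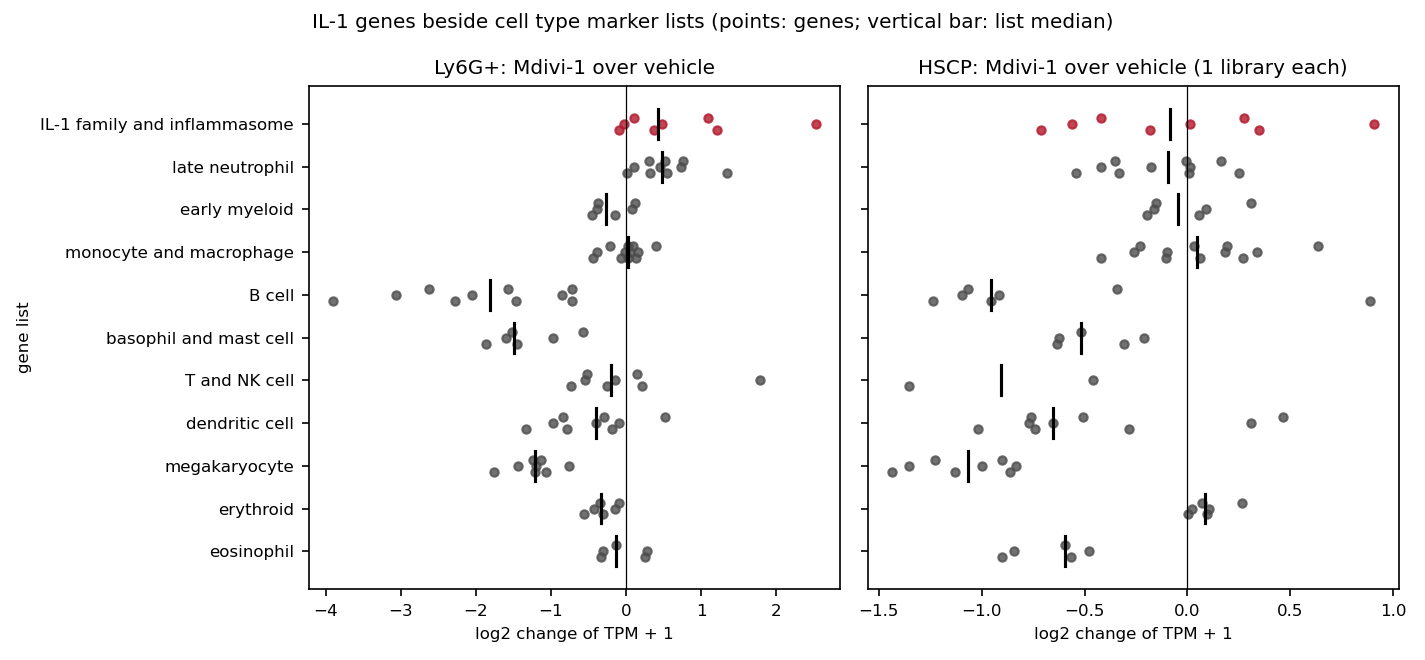
Log2 change of each gene of the interleukin-1 set and of 10 lists of cell type markers for Ly6G+ Mdivi-1 over vehicle (left) and HSCP Mdivi-1 over vehicle (right, 1 library per arm); points are genes on the log2(TPM + 1) scale and vertical bars are list medians. In Ly6G+ the late neutrophil markers have a median of 0.48 and the B cell markers one of -1.81.

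Calls in the rest of the pathway were counted beside those over all genes. Of 62 other genes of receptors, signalling, inflammasomes, caspases, pores and neutrophil proteases, 60 are in the table and 53 were tested; 4 were higher (7.55%), 1 was lower (1.89%) and 48 did not pass, against 2.46% higher and 4.24% lower over all genes. Their median log2 change was -0.04, against -0.05 over all genes. Nfkbia, the inhibitor of NF-kB that NF-kB itself induces, had 156 and 145 TPM in Ly6G+ Mdivi-1, against 81.1 and 85.2 TPM in Ly6G+ vehicle (log2 change 0.85, limma adjusted p = 0.00639). Nlrp12, a sensor-family gene known to restrain inflammatory signalling, had 12.01 and 11.2 TPM in Ly6G+ Mdivi-1, against 7.33 and 7.43 TPM in Ly6G+ vehicle (log2 change 0.59, limma adjusted p = 0.0342). The arms did not overlap for either gene.

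Txnip, a thioredoxin-binding protein reported to bind NLRP3, had 560 and 547 TPM in Ly6G+ Mdivi-1, against 391 and 376 TPM in Ly6G+ vehicle (log2 change 0.53, limma adjusted p = 0.0101). Il18rap, the accessory chain of the interleukin-18 receptor, had 147 and 153 TPM in Ly6G+ Mdivi-1, against 120.2 and 115 TPM in Ly6G+ vehicle (log2 change 0.35, limma adjusted p = 0.0355). Gsdme, a pore-forming gasdermin, was the gene that fell, with 46.6 and 46.5 TPM in Ly6G+ Mdivi-1 against 57.6 and 58.7 TPM in Ly6G+ vehicle (log2 change -0.31, limma adjusted p = 0.0458). Without vehicle replicate 1 none of these 5 passed in limma, and without vehicle replicate 2 none did. Nfkbia and Txnip passed with either Mdivi-1 library left out. Of 17 signalling genes from Myd88 to Ikbkg 0 passed in limma over all genes. Among these 17, 5 had Mdivi-1 wholly above vehicle and 4 wholly below. Over all genes tested the shares were 21% above and 36.7% below, so such a lack of overlap is no result about these genes.

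**Figure D4:**
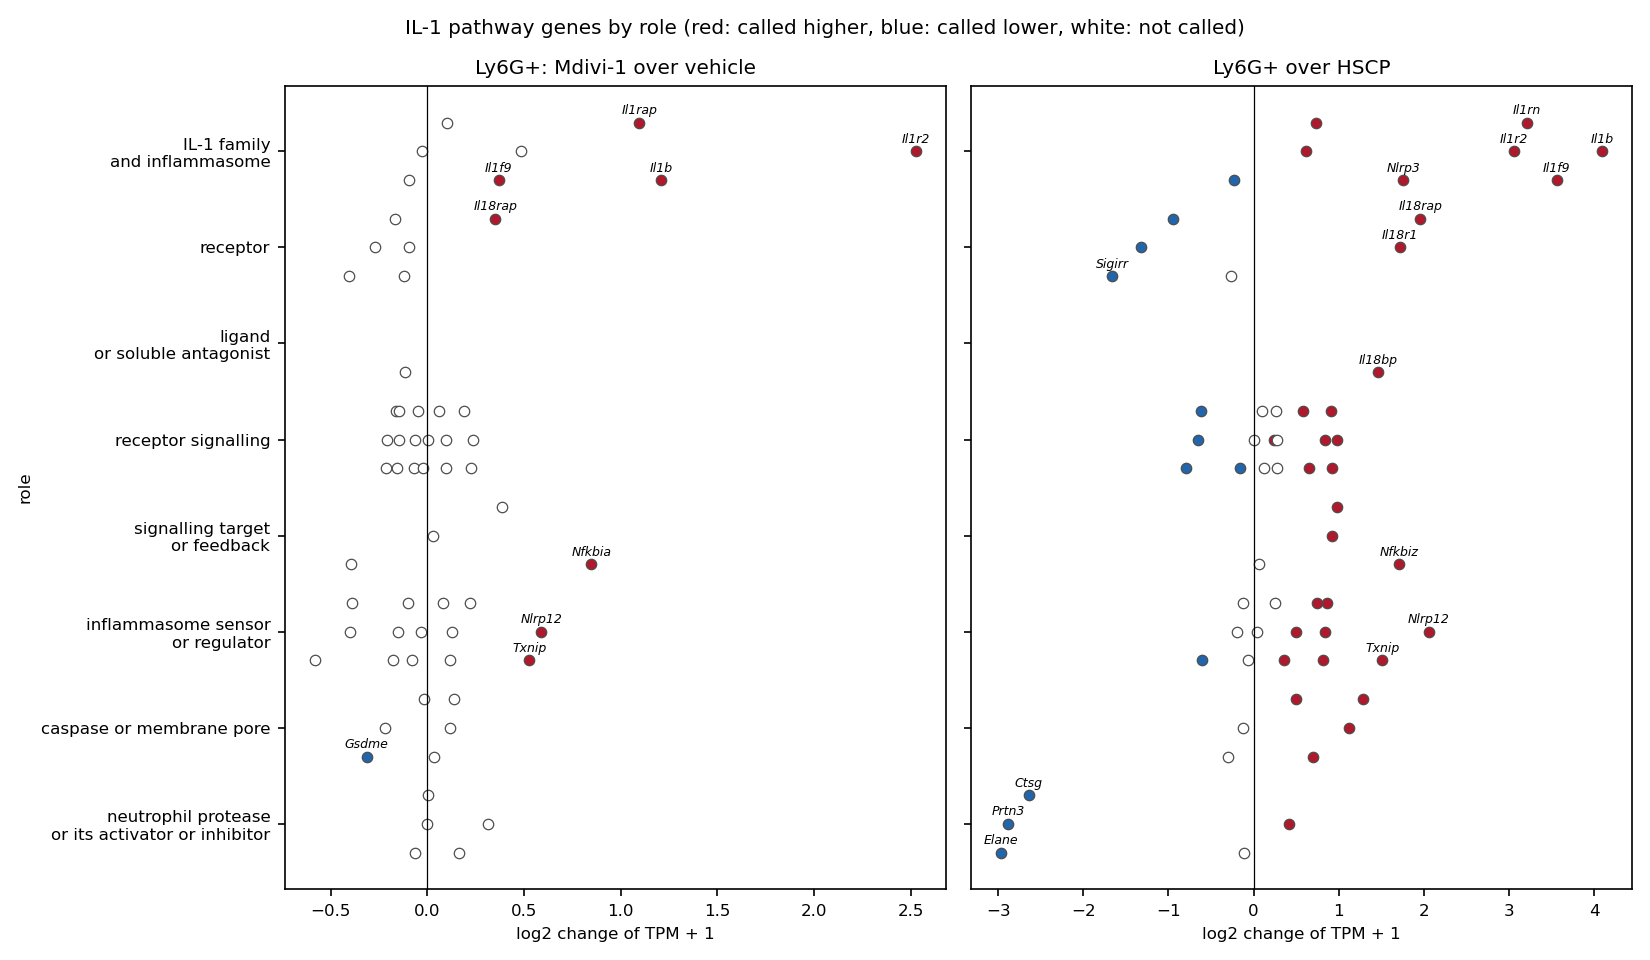
Log2 change on the log2(TPM + 1) scale of the interleukin-1 set and of the other pathway genes grouped by role, for Ly6G+ Mdivi-1 over vehicle (left) and Ly6G+ over HSCP (right); points are genes, red called higher, blue called lower, white not called. Nfkbia (0.85), Nlrp12 (0.59), Txnip (0.53) and Il18rap (0.35) are the red points outside the top row on the left.

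Il1r2 lies at one end of a cluster of 6 receptor genes on chromosome 1, from 40074079 to 40551705, with no other protein-coding gene between them. In order these are Il1r2, Il1r1, Il1rl2, Il1rl1, Il18r1 and Il18rap. With Mdivi-1 the outer genes, Il1r2 and Il18rap, were higher in Ly6G+ cells and the inner 4 did not pass. The signalling receptor gene Il1r1 changed by -0.17 (limma adjusted p = 0.609), Il1rl2, the interleukin-36 receptor chain, by -0.12 (limma adjusted p = 0.577), and Il1rl1, the interleukin-33 receptor, by -0.10 (limma adjusted p = 0.68). Il18r1, the ligand-binding chain for interleukin-18, had 7.23 and 6.60 TPM in Ly6G+ Mdivi-1, against 8.89 and 10.1 TPM in Ly6G+ vehicle (log2 change -0.40, limma adjusted p = 0.105). Beside Casp1 on chromosome 9, the inflammatory caspase genes Casp4 (log2 change 0.14, limma adjusted p = 0.294) and Casp12 (log2 change -0.22, limma adjusted p = 0.511) did not pass either.

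**Figure D5:**
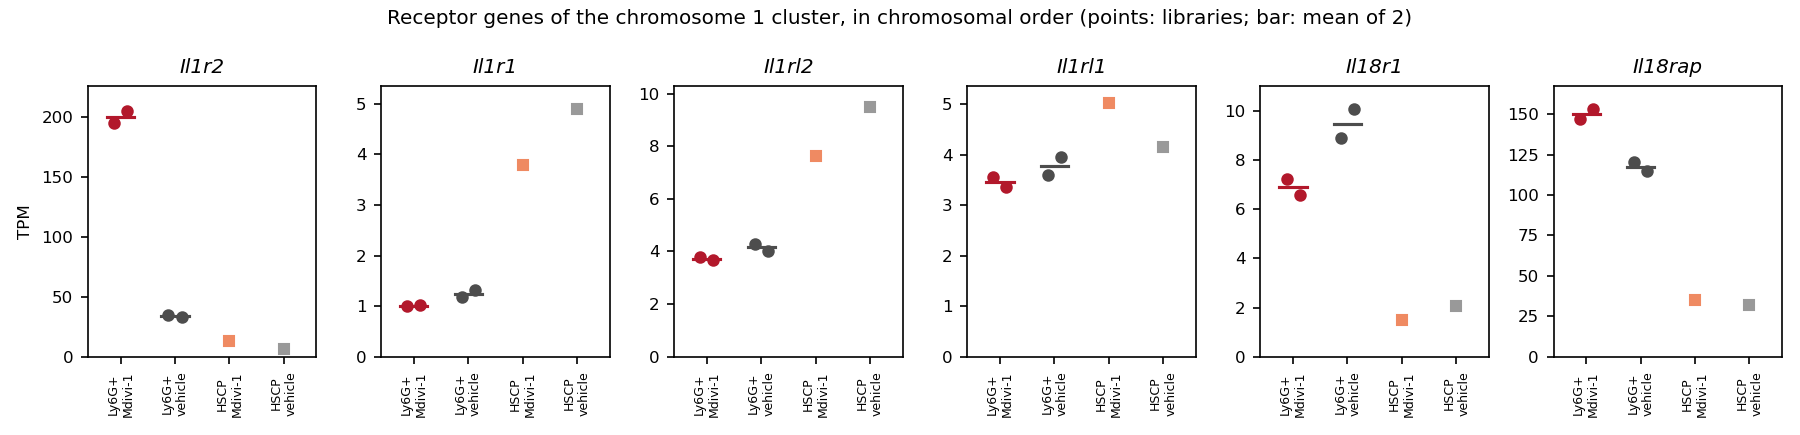
Levels in TPM of the 6 receptor genes of the chromosome 1 cluster, in chromosomal order, in Ly6G+ Mdivi-1, Ly6G+ vehicle, HSCP Mdivi-1 and HSCP vehicle from left to right; points are libraries and the bar is the mean of 2. Il1r2 and Il18rap are the abundant genes in Ly6G+ cells, and Il1r1 is near 1 TPM there.

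Between populations, the ligand genes Il1b and Il1f9 and the inhibitor genes Il1rn and Il1r2 were far more abundant in Ly6G+ cells than in HSCPs, while Pycard and Casp1 were expressed in both. Il1a and Il18 were below 1 TPM in all libraries of both populations and were not tested. Fitted over all 6 libraries with treatment as a covariate, 7 of the 8 tested genes were higher in Ly6G+, 1 was lower and 0 were not called. Over all 12338 genes tested, 22.2% were called higher and 50.3% lower in Ly6G+, so a call as such was common in this comparison. The split of 2736 higher and 6202 lower became 4156 and 4196 after median-of-ratios scaling and 3921 and 4518 with upper-quartile scaling. The 8 genes had a median log2 change of 2.41, against -0.35 over all genes. That all-gene median moved to -0.01 with median-of-ratios scaling and to -0.07 with upper-quartile scaling, so values here are best read against it.

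Il1b averaged 226 TPM over the 4 Ly6G+ libraries, against 12.5 TPM in HSCP Mdivi-1 and 10.1 TPM in HSCP vehicle. Its log2 change was 4.09 with SE 0.198 (limma adjusted p = 1.8e-05). Il1f9 had 7.35 TPM in HSCP Mdivi-1 and 11.3 TPM in HSCP vehicle, below every Ly6G+ library (log2 change 3.56, limma adjusted p = 2.6e-05). Il1rn had 4.20 TPM in HSCP Mdivi-1 and 7.50 TPM in HSCP vehicle and was also below every Ly6G+ library (log2 change 3.21, limma adjusted p = 1.9e-05). Il1r2 was higher in Ly6G+ with the widest error of the 8 genes (log2 change 3.06, SE 0.368, limma adjusted p = 0.00107). The fit takes the treatment change as equal in both populations, whereas for Il1r2 it was 2.53 in Ly6G+ and 0.91 in HSCPs. That difference enters its error as well, and over 12 alternatives its population log2 change ranged from 2.25 to 3.87.

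Nlrp3 was higher in Ly6G+ by 1.76 (limma adjusted p = 0.000339) and Casp1 by 0.61 (limma adjusted p = 0.00062) on the log2 scale. Casp1 was at 38.4 TPM in HSCP Mdivi-1 and 43.7 TPM in HSCP vehicle. Il1rap was higher by 0.73 (limma adjusted p = 0.00773), but its value in Ly6G+ vehicle (7.69 and 7.79 TPM) was close to that in HSCP Mdivi-1 (7.67 TPM), and it did not pass without the treatment covariate (limma adjusted p = 0.127). Pycard was lower in Ly6G+ by a log2 change of -0.23 (limma adjusted p = 0.0339), with 62.7 TPM in HSCP Mdivi-1 and 62.1 TPM in HSCP vehicle. After median-of-ratios and upper-quartile scaling its log2 change was 0.14 and 0.08 and did not pass, so its direction depends on the scaling. Pycard was the most abundant of the 10 genes in HSCPs, at 41.9% of their summed TPM with Mdivi-1 and 40.7% with vehicle, followed by Casp1 at 25.6% with Mdivi-1 and 28.6% with vehicle.

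Of the 53 other pathway genes tested between populations, 26 were higher in Ly6G+ (49.1%), 11 were lower (20.8%) and 16 did not pass. Over all genes tested, 22.2% were called higher and 50.3% lower. The median log2 change was 0.27, against -0.35 over all genes. Counts by role are best read beside these shares, which the scaling moves. Among the receptors, Il18rap (1.96) and Il18r1 (1.72) were higher, and Sigirr (-1.66), an inhibitory receptor, Il1r1 (-1.33) and Il1rl2 (-0.95) were lower. Il1rl1 did not pass (-0.27, limma adjusted p = 0.0989). The soluble interleukin-18 inhibitor Il18bp was higher (1.46). Signalling genes split, with 7 higher, 4 lower and 6 not called. Higher were the kinase genes Irak2 (0.98), Irak4 (0.91) and Irak3 (0.65), the adaptor Myd88 (0.92) and the ubiquitin ligase Peli1 (0.84). Lower were Tab1 (-0.79), Irak1 (-0.65), Ube2v1 (-0.62) and Ube2n (-0.16), of which Ube2v1 has only 33.8% of its 31-base words to itself. Ube2n turned to 0.21 with median-of-ratios scaling and to 0.15 with upper-quartile scaling.

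The feedback genes Nfkbiz (1.71), Nfkbia (0.98) and Zc3h12a (0.92) were higher in Ly6G+. Among 14 inflammasome sensors and regulators tested 8 were higher, led by Nlrp12 (2.06), Txnip (1.51), Naip6 (0.86), Naip5 (0.84) and Naip2 (0.81). The channel gene Panx1 was lower (-0.61). The Naip genes are related copies with between 46.9% and 67.2% of 31-base words found in no other gene, so the split of reads among them is uncertain. Casp4 (1.28), Gsdme (1.13), the membrane rupture gene Ninj1 (0.69) and the pore gene Gsdmd (0.50) were higher, while Casp12 did not pass (-0.30, limma adjusted p = 0.123). The protease genes Elane (-2.96), Prtn3 (-2.88) and Ctsg (-2.64), which neutrophil precursors express for their granules, were lower in Ly6G+, and Ctsc, which activates these proteases, was higher (0.42). Early myeloid markers were lower in Ly6G+ for 6 of 6 genes, against 50.3% of all genes. Late neutrophil markers were higher for 10 of 10, against 22.2% of all genes. The part of cell stage in the differences of the interleukin-1 genes was not tested.

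Some of these ratios, each again holding Il1r2 or Il1b, differed between populations as well. Il1b over Casp1 was 4.93, 5.20, 2.01 and 2.28 in the Ly6G+ libraries, against 0.325 in HSCP Mdivi-1 and 0.232 in HSCP vehicle. Il1r2 over Il1r1 was 3.36 in HSCP Mdivi-1 and 1.29 in HSCP vehicle, below every Ly6G+ library. For these 2 ratios and for Il1r2 over Il1rap, the exact two-sided permutation p was 0.133 over 4 and 2 libraries, the smallest this test can give. Il1rn over Il1b (p = 0.4) and Il1r2 over Il1b (p = 0.267) overlapped between populations in the same exact permutation test. All 5 had Benjamini-Hochberg adjusted p between 0.37 and 0.4.

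In HSCPs, with 1 library per arm and thus no test, 0 of the 8 genes passed a log2 ratio of TPM + 1 of 1 in size. Over 11881 genes with a mean of at least 1 TPM, 1.01% passed it upward and 1.42% downward. Il1r2 had 12.8 TPM with Mdivi-1 and 6.33 TPM with vehicle, a log2 ratio of 0.91. The added 1 TPM sets that side of the threshold, since the plain ratio of its TPM was 2.02-fold; with 0.1 TPM added the log2 ratio was 0.9996. Il1rap had 7.67 TPM with Mdivi-1 and 5.83 TPM with vehicle (0.35), and Il1b had 12.5 TPM with Mdivi-1 and 10.1 TPM with vehicle (0.27). The same 3 genes had the largest changes in Ly6G+. Here Il1r2 also had the largest log2 ratio of the 8 genes in size, but Il1rap and Il1b did not come next. Il1rn (-0.71), Il1f9 (-0.56) and Nlrp3 (-0.42) fell by more than Il1rap and Il1b rose. No replicate shows how far HSCP libraries vary.

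Other genes had lower values in the HSCP Mdivi-1 library, with log2 ratios of -0.71 for Il1rn, -0.56 for Il1f9, -0.42 for Nlrp3 and -0.18 for Casp1, and Pycard was at 0.01. Il1a was at 0.22 TPM with Mdivi-1 and 0.41 TPM with vehicle, and Il18 at 0.37 TPM with Mdivi-1 and listed at 0 with vehicle. The median over the 8 genes was -0.08, against 0.02 over all genes. Ly6g, at 90.1 TPM with Mdivi-1 and 187 TPM with vehicle, had a log2 ratio of -1.04. The late neutrophil markers summed to 3911 TPM with Mdivi-1 and 4427 TPM with vehicle. Most of that gap came from Retnlg, at 1422 TPM with Mdivi-1 and 1902 TPM with vehicle. The log2 ratios of the 10 markers ran from -0.54 to 0.25, with a median of -0.09. The megakaryocyte markers summed to 166 TPM with Mdivi-1 and 334 TPM with vehicle, and the B cell markers to 48.9 TPM with Mdivi-1 and 76.6 TPM with vehicle. In the same order, sums were also lower for dendritic cell (777 and 1272), eosinophil (380 and 679) and basophil and mast cell markers (197 and 265). They were lower too for T and NK cell (14.2 and 29.0) and monocyte and macrophage markers (1858 and 1900). Early myeloid (7515 and 7171) and erythroid sums (2991 and 2819) were higher. How far maturing or other cells in the CD117 selection contribute to these values was not tested. Nfkbia had 69.1 TPM with Mdivi-1 and 45.8 TPM with vehicle (log2 ratio 0.58).

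Among 2967 genes with a mean of at least 5 TPM and an SD of at least 0.5 on the log2 scale, those whose level over the 6 libraries was most like Il1r2 were Tbc1d14, Cd14, Id2, Clec4n and Dusp1, with Pearson's r between 0.993 and 0.994. Cd14, a co-receptor for bacterial lipopolysaccharide, had 34.5 and 30.5 TPM in Ly6G+ Mdivi-1, against 11.7 and 9.70 TPM in Ly6G+ vehicle. Those most like Il1b were Stfa3, Stfa2l1, Tlr13, Stfa2 and Asprv1, with r between 0.9993 and 0.9998. Stfa3, Stfa2l1 and Stfa2 are stefin genes of 1 family, and how far their reads can be told apart was not measured. Between Il1r2 and Il1b themselves r was 0.927. These values are descriptions over 6 libraries that share 2 sorts and 2 treatments, and a gene that differs between populations gives a high r by that alone.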

How the data were processed

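The authors deposited a single table with values of 28987 mouse genes for 6 libraries of sorted bone marrow cells. Its name speaks of counts, but the values have decimals and library sums lie from 963243.1 to 979168.3, so the deposited values were treated as TPM. The submitters' processing notes name kallisto, bcl2fastq and CASAVA 1.8 and build mm10. Not given in the sources used here are the kallisto version, the annotation and the strand setting. Since TPM holds no read totals, the depth is unknown and counting intervals are not given.

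Symbols and positions were taken from GENCODE M21, which matched 27475 genes and left 1512 without a symbol. Tests used limma 3.58.1 under R 4.3.3, with values as log2(TPM + 1) and the trend and robust options. Genes needed 1 TPM or more in 2 or more of the libraries compared, with Benjamini-Hochberg adjustment over all of them at 0.05. Changes of low genes are understated on this scale. The limma step was tested on simulated data. The Ly6G+ comparison used 4 libraries, and the population comparison all 6 with treatment as a covariate. HSCP arms have 1 library each and were not tested. Ratios used exact two-sided permutation tests on log2 ratios of TPM + 1, while the ratios printed are of TPM itself. Unique 31-base words were counted in the M21 transcripts.

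All 10 genes are named. Of the other pathway genes, up to 5 per role and direction past the threshold are named, with the neighbours of Il1r2 and Casp1 in their chromosomal clusters, the sort and target genes, and the 5 genes most like Il1r2 and Il1b. The members, gene lists, tests and alternatives were chosen with earlier results of these data known. Alternatives were 2 other scalings, a pseudocount of 0.1 TPM, no filter, a filter at 5 TPM, leaving out each library, a replicate block and no treatment covariate.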

Additional observations from a re-analysis of the deposited data

Results flagged for a closer look

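Genes of the set and the other pathway genes were flagged if their log2 values had opposite signs in Ly6G+ cells and HSCPs. Both values had to be at least 0.25 in size, with Ly6G+ arms that did not overlap and an HSCP mean of at least 1 TPM. The 3 genes flagged rose with Mdivi-1 over vehicle in Ly6G+ cells and had a negative log2 ratio in HSCPs. Genes with smaller changes, such as Il1rn (0.10 in Ly6G+, -0.71 in HSCPs), were not flagged. The share of all genes that meet this rule was not counted. The difference between the 2 populations was not tested, since each HSCP arm has 1 library. For Il1f9 the log2 change was 0.37 in Ly6G+ and -0.56 in HSCPs, a difference of 0.93. For Nlrp3 it was 0.48 in Ly6G+, which did not pass, and -0.42 in HSCPs, a difference of 0.91. For Nlrp12 it was 0.59 in Ly6G+ and -0.37 in HSCPs, a difference of 0.95, at levels of 1.18 TPM in HSCP Mdivi-1 and 1.8 TPM in HSCP vehicle.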

How the results depend on the processing

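With Mdivi-1 in Ly6G+ cells, Il1r2 and Il1b passed in all 10 alternatives, with log2 changes from 2.49 to 2.59 and from 1.18 to 1.27, and Il1rap in 8 of 10. The count of the 10 genes higher, 4 on TPM as deposited, was 3 without a filter and 3 with the replicate block, 5 under both scalings and at 5 TPM, and between 2 and 3 when a library was left out. With the block and without a filter Il1f9 was the gene lost (limma adjusted p = 0.0929 and 0.0977). Of other pathway genes, 4 higher became 2 without a filter, 2 with the block and 0 to 2 with a library left out, and the 1 lower became 0 under both scalings, without a filter, with the block and with any library left out, and 2 at 5 TPM. Over all genes, 290 higher became 104 without a filter, 152 with the block and 17 to 116 with a library left out, and 499 lower became 114, 173 and 5 to 163 in the same settings. The lowest counts came without vehicle replicate 2. The cause was not tested.

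The library numbers 1 and 2 are shared by the arms without being stated to pair libraries. Deviations of same-numbered libraries from their arm means correlated at r = -0.03 across 11775 genes, so the block was not used for the results above.

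Between populations, the 1 gene of the 10 that was lower, Pycard, became 0 under both scalings and without a filter, and 0 to 1 with a library left out. After median-of-ratios and upper-quartile scaling the log2 changes were 0.136 and 0.0755 for Pycard, 0.21 and 0.15 for Ube2n, 0.24 and 0.18 for Casp8 (a cell death caspase) and 0.26 and 0.20 for Serpinb1a (a protease inhibitor), each negative on TPM as deposited. Under median-of-ratios scaling 4156 genes were higher, against 2736. In HSCPs a pseudocount of 0.1 TPM gave 183 genes past the ratio upward and 277 downward, against 120 and 169. The 10 ratio differences kept their sign in all alternatives run. Unknown read totals limit the reading of Il1a and Il18, and 2 libraries per arm limit all Ly6G+ tests.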
